A study of Mus musculus with 6 samples.

Results

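H3K9ac, an acetylation of histone H3 at active promoters, was examined at 7 genes that read or erase histone acetylation, the BET readers Brd2 and Brd3 and the sirtuins Sirt1, Sirt2, Sirt3, Sirt6 and Sirt7. All rows of the deposited peak table that carry the symbol of such a gene were taken. They were 3 of 17901 rows, 1 each for Brd2, Brd3 and Sirt3. Each of the 3 lay over or next to a transcription start and none was distal, while Sirt1, Sirt2, Sirt6 and Sirt7 had no row under their own symbol. Mouse lung endothelial cells were compared by CUT&RUN, in which a nuclease releases the DNA beneath an antibody-bound protein, in 3 WT (Cre-negative) and 3 CSE-KO (Cre-positive) libraries. CSE, encoded by Cth, is an enzyme that makes cysteine and hydrogen sulfide. The labels name no Cre driver, age, sex or number of animals per library, so a p-value here weighs only the variation among libraries, part of which may be technical.

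BET proteins bind acetylated histone tails through paired bromodomains and recruit the machinery of transcription elongation. Brd2 and Brd3 are expressed in many tissues, and BET inhibitors dampen inflammatory gene induction in endothelium. Sirtuins remove acyl groups from proteins at the cost of NAD. Sirt1, Sirt6 and Sirt7 act mainly in the nucleus, with acetylated H3K9 a known substrate of Sirt6, while Sirt2 is mainly cytosolic and Sirt3 mitochondrial.

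The sequences upstream of the covered starts show which promoters the measurements stand on. RefSeq promoter windows on GRCm38.p6 matched all 7 genes, and the 250 bases before the start are given 5′ to 3′ on the strand of the gene for the 3 rows, and for Sirt2, whose start lay under a row of another gene. Capitals mark matches on either strand to the motifs searched: GGGCGG (SP/KLF), CCGGAAGT (ETS), CCAAT (NFY), TGACGTCA (CREB), CACGTG (E-box), the core promoter element TATAAA and the NRF1 motif. The windows are chr17:34121748-34121997 (minus strand) for Brd2, chr2:27475399-27475648 (minus) for Brd3, chr7:140882310-140882559 (minus) for Sirt3 and chr7:28766502-28766751 (plus) for Sirt2.
Brd2: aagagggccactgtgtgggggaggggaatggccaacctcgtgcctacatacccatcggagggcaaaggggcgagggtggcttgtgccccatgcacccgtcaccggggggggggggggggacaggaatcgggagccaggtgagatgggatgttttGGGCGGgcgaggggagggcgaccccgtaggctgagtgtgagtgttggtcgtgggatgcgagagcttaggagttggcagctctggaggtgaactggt
Brd3: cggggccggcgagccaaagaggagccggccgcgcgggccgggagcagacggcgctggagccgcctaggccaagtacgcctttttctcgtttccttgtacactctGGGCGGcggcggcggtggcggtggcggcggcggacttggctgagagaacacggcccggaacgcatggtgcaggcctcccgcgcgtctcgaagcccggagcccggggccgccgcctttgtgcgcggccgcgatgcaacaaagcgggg
Sirt3: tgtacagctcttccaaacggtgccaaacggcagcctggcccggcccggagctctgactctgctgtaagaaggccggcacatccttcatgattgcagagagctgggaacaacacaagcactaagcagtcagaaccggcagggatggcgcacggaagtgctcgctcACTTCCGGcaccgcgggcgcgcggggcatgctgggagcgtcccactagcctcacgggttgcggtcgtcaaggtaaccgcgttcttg
Sirt2: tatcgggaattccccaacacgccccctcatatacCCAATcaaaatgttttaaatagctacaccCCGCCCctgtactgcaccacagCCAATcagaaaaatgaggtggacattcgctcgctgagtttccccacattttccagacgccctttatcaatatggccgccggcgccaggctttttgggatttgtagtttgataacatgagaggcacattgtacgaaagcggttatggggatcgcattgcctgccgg

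These windows differed in CG content. The Brd3 window held 37 CG pairs, more than 97.8% of the 32851 RefSeq windows of the same length, whose median was 6. The Sirt3 window held 21, the Sirt2 window 13 and the Brd2 window 12. The Brd2 and Brd3 windows each had 1 GGGCGG match, a motif in 32.7% of all windows. The Sirt3 window had 1 match to CCGGAAGT, present in 2.88% of all windows. The window before the second Sirt3 start, at 140881869, lies under the same row and held 18 CG pairs, 3 GGGCGG matches and 1 CCAAT match, with no match to CCGGAAGT. In the Sirt2 window 2 matches to CCAAT (33.8% of all windows) and 1 to GGGCGG stood upstream of the start. No match to TGACGTCA (1.55%), CACGTG (6.02%), TATAAA (12.4%) or the NRF1 motif (0.782%) lay in the 4 windows printed. A match describes letters in the window and no binding was measured.

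The rows differed in how they lay about the starts. The Brd2 row (chr17:34120508-34122495, 1988 bp), annotated by the authors as the 5′ UTR in exon 1, reached from 748 bp upstream to 1239 bp downstream of the RefSeq start at 34121747. Brd2 has further RefSeq starts at 34122607, 112 bp beyond the upstream end of the row, and at 34119900, 608 bp beyond its downstream end. The Brd3 row (chr2:27473926-27475674, 1749 bp), annotated to intron 1, lay mostly downstream, from 276 bp before to 1472 bp after the start at 27475398. The RefSeq span of Brd3 (chr2:27445576-27507657, minus strand) reaches further upstream, and no other row lay within it. No promoter window was given for that upstream end, so the values here stand for the start at 27475398. The Sirt3 row (chr7:140881845-140882839, 995 bp), annotated as promoter, covered the start at 140882309 and the second RefSeq start at 140881869. It reached 530 bp upstream of 140882309. Starts of other genes under the Brd2, Brd3 and Sirt3 rows were not searched for. Whether the mark in these rows is shared with a neighbouring gene was therefore not examined. Start peaks of the whole table had a median length of 1074 bp.

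**Figure D1:**
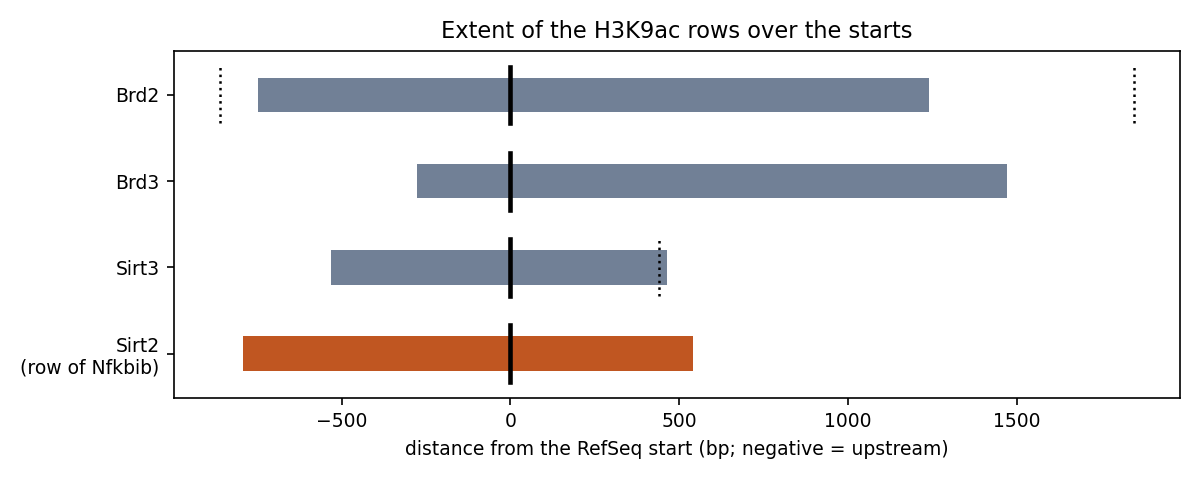
Extent of 4 H3K9ac rows (bars) on an axis of distance from the RefSeq start in bp, upstream to the left. Solid lines mark the start used and dotted lines other RefSeq starts of the gene. The bars of Brd2, Brd3 and Sirt3 are rows that carry their symbol, while the bar at Sirt2 is a row the authors assigned to Nfkbib. The Brd2 bar ends 112 bp short of an upstream start.

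The 4 sirtuins without a row fell into different situations. The start of Sirt2, at 28766752 on chromosome 7, lay under a row assigned to Nfkbib (chr7:28765961-28767293), an inhibitor gene of NF-kB whose RefSeq start lies 108 bp away on the opposite strand. H3K9ac at this shared start region therefore cannot be divided between Sirt2 and Nfkbib. Sirt1, a regulator of endothelial nitric oxide synthase and p53, had no row within 20 kb, the nearest rows being those of Herc4, 74.4 kb away, and Dnajc12, 42.6 kb away. Sirt7, linked to ribosomal gene transcription, also had none within 20 kb, with Slc25a10 at 107.6 kb and Aspscr1 at 47.9 kb. Sirt6 had none either, between a row of Tle2 on its left and of Zfp873, 420.3 kb away, on its right.

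Row identifiers run in genome order up to 23867, so the numbering shows where numbered peaks have no row among the 17901 used here. The rows on either side of Sirt6 carried consecutive identifiers, 2350 and 2351, so no numbered peak lay between them. Between the rows that flank Sirt1 (identifiers 2129 and 2131) and Sirt7 (4360 and 4362), 1 identifier each had no row, and those peaks are not analysed here. A gene without a row is not shown to lack the mark.

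Of the 6 libraries, the summed count over all rows was 313610 to 676056 in WT and 679938 to 1173016 in CSE-KO, with no overlap in depth between the groups. All 12 endothelial marker genes had rows, with summed levels of 2438 to 2593 CPM (counts normalised to TMM-adjusted library totals) in WT and 2234 to 2556 in CSE-KO libraries. None of 7 leukocyte markers, among them Ptprc and Spi1, and 1 of 8 fibroblast and mural markers had a row (32.99 to 46.9 CPM in WT and 22.4 to 51.8 in CSE-KO). Of 8 epithelial markers 5 had rows (381 to 409 and 356 to 399 CPM), and Nkx2-1, Sftpc and Sftpb had none. The groups overlapped in each of these sums. They cover all rows of a gene, start peaks or not. A start peak was present at 6 of the endothelial genes, 1 of the epithelial and 0 of the fibroblast and mural genes. Of 6 tested start peaks of endothelial markers, 2 had an unadjusted edgeR p under 0.05, in opposite directions. Of all tested start peaks 5.56% did. Cdh5, which encodes VE-cadherin, averaged 255.5 CPM in WT and 194 in CSE-KO libraries, a log2 fold change (-0.38, SE 0.15) close in size to that of Brd2 below, and Tie1, an endothelial receptor, averaged 40.3 and 63.0 CPM (0.70, SE 0.29). By edgeR their adjusted p-values were 0.62 and 0.64. The part of other cells in the results below was not tested. In such bulk libraries fewer cells that carry the mark and less mark per cell cannot be told apart.

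Brd2 carried the strongest mark of the group. Its row held 207, 107 and 184 counts in the WT libraries and 314, 157 and 176 in the CSE-KO libraries, each in the order of replicates 1 to 3. Scaled to CPM, this was 313, 353 and 309 in WT and 271, 234 and 260 in CSE-KO. Every CSE-KO library lay below every WT library, and the WT library with the highest level, replicate 2, was also the shallowest. The WT mean was 325 ± 24.2 CPM and the CSE-KO mean 255 ± 19.0 (SD, n = 3 libraries each). A two-sided exact permutation test of these means gave p = 0.10, below which 3 libraries against 3 cannot go. Fitted across all 16134 tested peaks, the Brd2 log2 fold change of CSE-KO against WT was -0.33 (SE 0.14, 95% interval -0.61 to -0.06), with an unadjusted p of 0.017 and an adjusted p of 0.64 by edgeR's quasi-likelihood test. The difference therefore did not pass over the table. Groups lay apart with CSE-KO lower at 6.9% of all tested peaks, and 7.08% had an unadjusted p under 0.05, so such a pattern at a single peak was common in these libraries.

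Brd3, the related reader, had a much lower level that varied within WT. Its row held 68, 16 and 57 counts in WT and 96, 45 and 44 in CSE-KO libraries, in the same order. In CPM these were 103, 52.8 and 95.8 in WT and 82.9, 67.2 and 65.1 in CSE-KO. The groups overlapped because WT replicate 2 was the lowest of the 6 libraries while the other WT libraries were the highest. The 16 counts of that library have an exact 95% Poisson interval of 9.15 to 26.0, which covers counting error only, and 30.1 would have been its count at the mean level of the other WT libraries. The WT mean was 83.8 ± 27.1 CPM and the CSE-KO mean 71.7 ± 9.77 (SD, n = 3 libraries each), with a log2 fold change of -0.27 (SE 0.24, 95% interval -0.75 to 0.21, edgeR adjusted p = 0.86). Without WT replicate 2 it was -0.45 (adjusted p = 0.68) and without WT replicate 1 it was -0.11 (adjusted p = 0.96).

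Sirt3, the main deacetylase of mitochondrial matrix proteins, had group means that nearly coincided. Its row held 58, 18 and 41 counts in WT and 68, 45 and 60 in CSE-KO libraries, or 87.8, 59.4 and 68.9 CPM in WT and 58.8, 67.2 and 88.7 CPM in CSE-KO. Each group spanned almost the whole range of the other. The means were 72.0 ± 14.5 and 71.5 ± 15.5 CPM (SD, n = 3 each), and the log2 fold change was -0.07 (SE 0.25, 95% interval -0.57 to 0.44, edgeR adjusted p = 0.98). Its sign turned without WT replicate 1 (0.12) or CSE-KO replicate 1 (0.08), so no direction can be given. The interval still allows a CSE-KO level between 0.675 and 1.35 times that of WT.

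**Figure D2:**
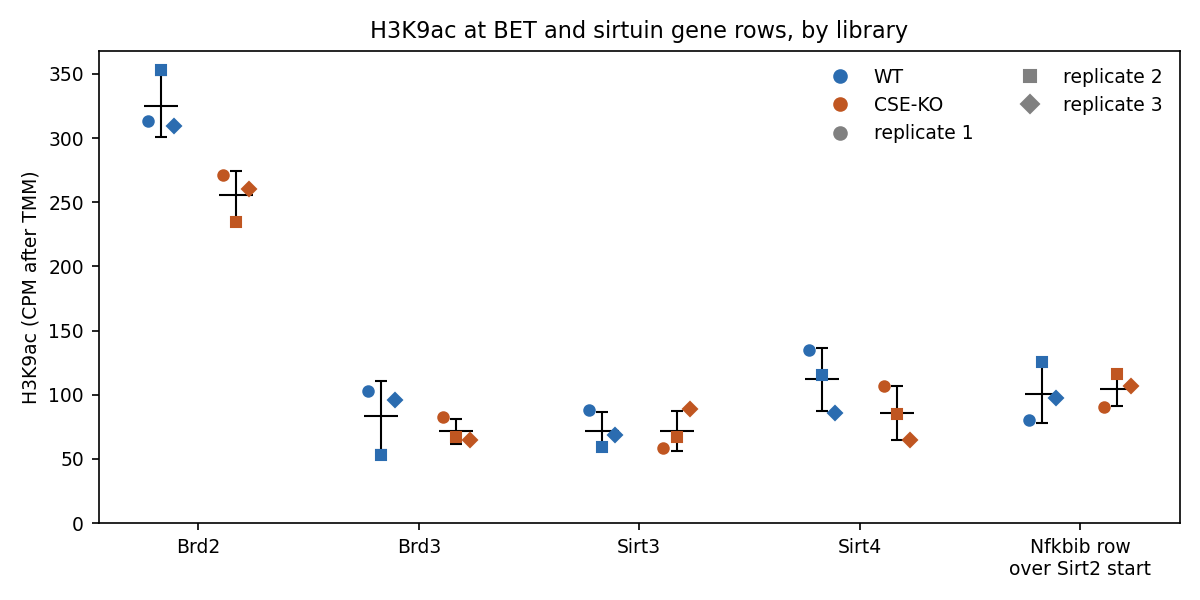
H3K9ac level (CPM after TMM scaling, vertical axis from 0) of 5 rows in each library, with WT in blue, CSE-KO in orange and a marker shape per replicate number, which does not link libraries. Horizontal lines are means and error bars SD (n = 3 each). At Brd2 the CSE-KO libraries (234 to 271) sit below the WT libraries (309 to 353), and at the other 4 rows the groups overlap.

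None of the 3 member rows was called by edgeR (0 of 3, against 0.0868% of all tested peaks). By unadjusted edgeR p under 0.05 it was 1 of 3, against 7.08% of all tested peaks. Neither the DESeq2 Wald test nor limma voom called any member row, and they called 7 and 13 of all 16134 tested peaks. Counts summed per gene over all its rows gave the same picture, since each of the 3 genes has a single row: none was called, against 0.123% of the 10569 genes tested. In that fit the log2 fold change was -0.32 at Brd2 (edgeR adjusted p = 0.64), -0.27 at Brd3 (0.88) and -0.06 at Sirt3 (0.99).

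**Figure D3:**
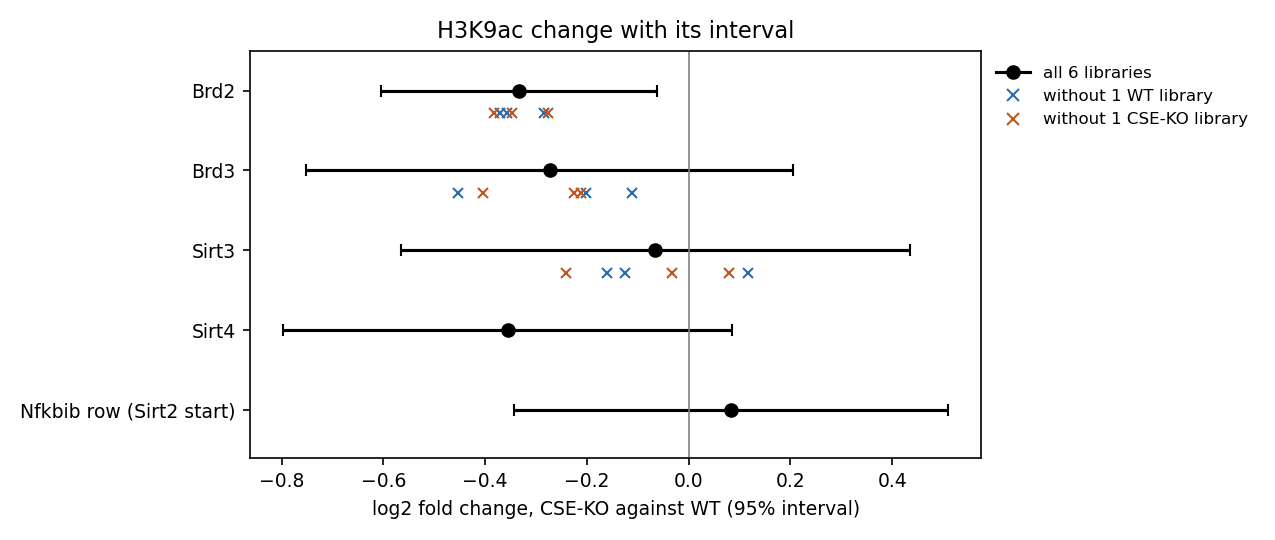
Log2 fold change of H3K9ac in CSE-KO against WT (horizontal axis) with its 95% interval for 5 rows (black), and, for Brd2, Brd3 and Sirt3, the value with 1 WT (blue crosses) or 1 CSE-KO library (orange crosses) left out. The Brd2 interval (-0.61 to -0.06), which is not adjusted for the number of peaks, lies below 0, the other 4 intervals include 0, and the Sirt3 crosses fall on both sides of 0.

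Per kb of peak, which allows levels to be compared between genes, Brd2 stood highest at a mean of 146 CPM per kb over the 6 libraries (118 to 178). Sirt3 followed among the members with 72.1 (59.0 to 89.2) and Brd3 was lowest with 44.5 (30.2 to 58.9). In each of the 6 libraries Brd2 exceeded Sirt3 and Sirt3 exceeded Brd3. The order of mean counts differed, since the Brd3 row is longer than the Sirt3 row, with 54.3 and 48.3 counts per library. Among 7823 tested start peaks, Brd2 ranked 60 in density, Sirt3 had 31.5% of them above it, and Brd3 had 82.4% above it. Thus the window with the most CG pairs of the 3, that of Brd3, belonged to the row with the lowest density.

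Ratios of counts within a library do not depend on the scaling between libraries. The Brd2 count was 3.04 to 6.69 times that of Brd3 in WT and 3.27 to 4.0 times in CSE-KO. It was 3.57 to 5.94 times that of Sirt3 in WT and 2.93 to 4.62 times in CSE-KO. The groups overlapped in both ratios. For Brd3 the overlap rested on WT replicate 2, the library with 16 Brd3 counts. Without it the ratio was 3.04 and 3.23 in WT and 3.27 to 4.0 in CSE-KO. That library was set aside after the values were seen. The gap between 3.23 and 3.27 lies within counting error. By the exact Poisson interval used above, the 57 Brd3 counts of WT replicate 3 range from 43.17 to 73.85. No difference between the groups can therefore be read from the ratio, and none is excluded, since it was not tested.

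Rows at other sirtuin genes give a frame for these values. Sirt4, another mitochondrial sirtuin, had a row that the authors annotated as intergenic, at -5233 bp from its start (chr5:115489038-115490397). The RefSeq span of Sirt4 (chr5:115478006-115490264, minus strand) ends inside this row, so by RefSeq the row covers the upstream end of the gene. Its WT mean was 112 ± 24.7 CPM and its CSE-KO mean 85.8 ± 21.0 (SD, n = 3 libraries each; log2 fold change -0.36, SE 0.22, edgeR adjusted p = 0.78), with overlapping groups. Sirt5, also mitochondrial, had no row.

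At the region shared by Sirt2 and Nfkbib the level was 80.2, 125 and 97.4 CPM in WT and 90.7, 116 and 106 CPM in CSE-KO. The groups overlapped, with a log2 fold change of 0.08 (SE 0.21, 95% interval -0.34 to 0.51, edgeR adjusted p = 0.97). Its density of 77.1 CPM per kb lay near those of Sirt4 (72.7) and Sirt3. Neighbours in this order overlapped in range from that row down to Sirt3. Within every library Brd2 lay above these rows and Brd3 below them. Over all libraries, however, the range of Brd3 (30.2 to 58.9 CPM per kb) overlapped that of Sirt4 (47.8 to 99.1).

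**Figure D4:**
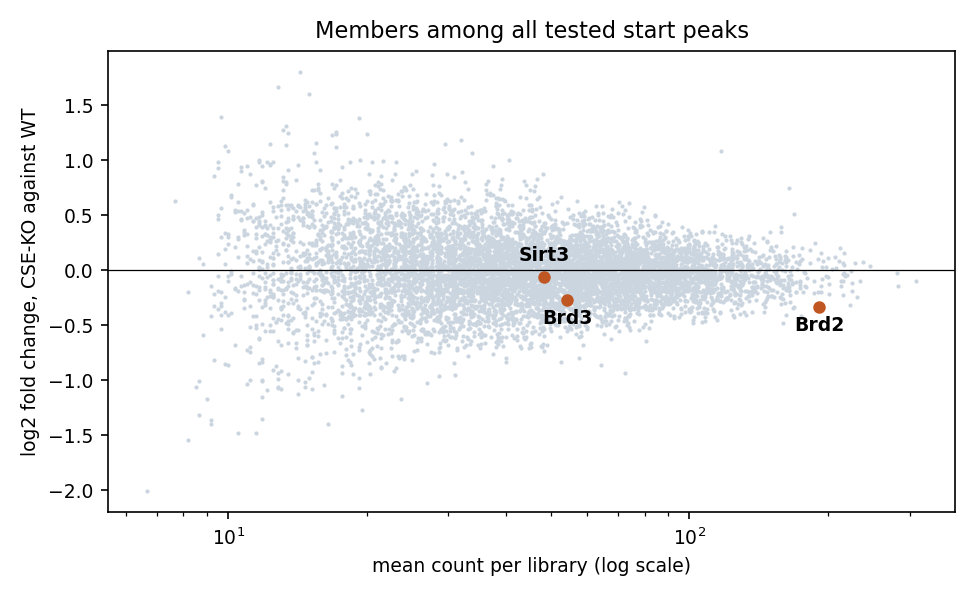
Log2 fold change of CSE-KO against WT (vertical axis) against the mean count per library (horizontal axis, log scale) for all 7823 tested start peaks (grey), with Brd2, Brd3 and Sirt3 in orange. Brd2 lies at the right with a mean count of 191 and a value of -0.33, while Brd3 and Sirt3 lie in the dense part of the plot at 54.3 and 48.3 counts.

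Genes that act with BET readers and sirtuins were read at 1 start peak each, the one with the highest mean count. Over all tested start peaks the median log2 fold change was -0.02 and 53.1% lay below 0. Other bromodomain genes had 13 of 19 below 0 (median -0.07), with Brpf1, a scaffold of MYST acetyltransferases, at -0.24 (SE 0.16), the AAA ATPase gene Atad2b at -0.21 (SE 0.15) and the remodeller ATPase Smarca4 at -0.27 (SE 0.21). The YEATS genes, a further family of acetyl-lysine readers, had 3 tested start peaks, Yeats4 at -0.65 (SE 0.35), Mllt1 at -0.31 (SE 0.27) and Yeats2 at -0.11 (SE 0.25). BET partners in elongation had 10 of 13 below 0 (median -0.13). Among them Ccnt2, a cyclin of P-TEFb, averaged 117 ± 21.7 CPM in WT libraries and 147 ± 15.8 in CSE-KO libraries (SD, n = 3 each; log2 fold change 0.34, SE 0.19), Nsd3, a methyltransferase bound by BET proteins, had -0.28 (SE 0.16) and Ell2, an elongation factor, -0.35 (SE 0.22).

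Enzymes that place or remove acetyl groups were similarly spread. Acetyltransferase genes had 6 of 11 start peaks below 0 (median -0.09), with Kat7 at -0.23 (SE 0.20), Ep300 at -0.18 (SE 0.16) and Kat2a, a main H3K9 acetyltransferase, at 0.39 (SE 0.50). Zinc-dependent deacetylase genes had 4 of 7 below 0 (median -0.11), with Hdac4 at -0.28 (SE 0.22), Hdac7 at -0.51 (SE 0.41) and Hdac2 at 0.23 (SE 0.22). Genes of NAD supply and use, the cosubstrate of sirtuins, had 9 of 11 below 0 (median -0.14). Nampt, the rate-limiting enzyme of NAD salvage, averaged 83.4 ± 4.04 CPM in WT libraries and 57.5 ± 25.5 in CSE-KO libraries (SD, n = 3 each; log2 fold change -0.47, SE 0.26, edgeR adjusted p = 0.75). Nadsyn1, which makes NAD from its acid form, had 20.2 ± 4.87 and 37.8 ± 8.37 CPM (0.86, SE 0.38, adjusted p = 0.66), and Parp2, a consumer of NAD, had -0.32 (SE 0.25). Genes of sirtuin substrates had 3 of 8 below 0 (median 0.19), with Hif1a at -0.40 (SE 0.20), Foxo1 at 0.32 (SE 0.32) and Ep300, which is also in the acetyltransferase list, at -0.18.

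No start peak in these lists was called by edgeR, by the DESeq2 Wald test or by limma voom, and the smallest edgeR adjusted p was 0.66. Over the whole table edgeR called 2 of 7823 tested start peaks. DESeq2 called 7 and voom 13 of all 16134 tested peaks. With calls so rare, their absence from these lists says little about the listed genes. Of their 71 tested start peaks, 1 had an unadjusted p under 0.05, that of Nadsyn1, or 1.41% against 5.56% of all tested start peaks.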

How the data were processed

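Tools named in the submitters' processing notes are STAR 2.7.11a, Trimmomatic 0.39, DESeq2 1.36.0, Picard 3.1.1 and featureCounts, with no settings. For the peak caller, nothing is stated in the sources used here. The deposited table gives raw counts per peak and library, and only its counts, coordinates and annotation were used. The notes name mm39, but the coordinates follow GRCm38: the start implied by the deposited distance lay within 10 bp of a RefSeq GRCm38.p6 start for 96.4% of 6469 start peaks with a window. A start peak has a promoter annotation, a centre within 1 kb of a start, or covers it. The table holds 75.0% of the numbered peaks.

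Counts were fitted with edgeR 4.0.16 under R 4.3.3 (TMM, glmQLFTest, two-sided). Low peaks were removed by filterByExpr at min.count 10, with Benjamini-Hochberg adjustment over 16134 peaks and a threshold of 0.05. The same fit was run on simulated counts, with a single dispersion and with changes larger than that at Brd2. That run does not show how often a change of the Brd2 size would be found. TMM centres the fold changes, so an equal change at all peaks could not be seen. Libraries of a group differed by more than sampling noise (1.91 to 2.14 for the chi-square statistic over its degrees of freedom), unlike copies of a library. This cannot tell separate animals from separate preparations of the same cells. The libraries were treated as replicates. The members and lists were chosen with earlier results of these data known. Named are all 7 members, up to 3 genes per list with the smallest p, and the 3 genes most like the strongest member. A listed gene is not reported here. The share of counts in start peaks was not computed, because no member has both kinds of row. Alternatives were RLE factors, library size alone, other filters, a robust fit, DESeq2 1.42.0, voom (limma 3.58.1), a replicate block, and each library left out.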

Additional observations from a re-analysis of the deposited data

How the results depend on the processing

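No member was called under any alternative that gave it a value, and with a mean count of 50 or more Sirt3 was not tested. Brd2 lay between -0.38 and -0.28 with single libraries left out (adjusted p 0.56 to 0.87) and between -0.34 and -0.30 otherwise (0.54 to 1.00). Brd3 lay between -0.45 and -0.11, and Sirt3 between -0.24 and 0.12, with single libraries left out. In the fit of gene sums the same ranges were -0.37 to -0.26, -0.45 to -0.10 and -0.23 to 0.12. For Sirt3 the sign turned without WT replicate 1 (0.12 for the peak and for the gene) and without CSE-KO replicate 1 (0.08 and 0.09), and the cause was not tested.

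Over the whole table, 14 peaks and 13 genes were called. The counts went to 8 peaks and 8 genes with a mean count of 50 or more, where fewer were tested, and to 7 peaks and 5 genes with DESeq2 (the cause was not tested). With single libraries left out they were 6 to 13 peaks and 5 to 9 genes. For peaks the libraries that moved the count by over 1.5 times were WT replicate 3 (7), CSE-KO 1 (6) and CSE-KO 3 (8), and for genes WT 1 (7), WT 3 (6), CSE-KO 1 (8), CSE-KO 2 (8) and CSE-KO 3 (5).

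The labels give WT and CSE-KO libraries the same replicate numbers. Deviations from the group means of same-numbered libraries correlated at 0.065, 0.014 and 0.005 for replicates 1, 2 and 3 across peaks. Libraries with different numbers correlated between -0.036 and 0.019. The value for replicate 1 was the highest of all, while WT replicate 2 correlated best with another number (0.019). The labels do not say that the numbers pair libraries, so they were not taken as pairs. With a replicate block 15 peaks and 17 genes were called, and Brd2 was at -0.33 (adjusted p = 0.61). At 48.3 and 54.3 counts per library the 95% intervals of Sirt3 and Brd3 span about 1 log2 unit, and at 191 counts that of Brd2 runs from -0.61 to -0.06. How much of this width is counting error and how much variation between libraries was not tested.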

Other observations

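Brd2 is among the most strongly marked promoters of these cells, with a rank of 41 of 7823 tested start peaks in mean count. Among the 41 start peaks with at least its mean count, Brd2 had the lowest log2 fold change. The values of the 40 others reached up to 0.20, and the median of all 41, Brd2 included, was -0.04. This comparison was chosen after the values were seen and is given without a test.

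The genes whose H3K9ac followed Brd2 most closely over the 6 libraries, by Pearson's r of log2(CPM + 1) at 1 start peak per gene, were Mrpl47, a mitochondrial ribosomal protein gene (r = 0.992), Gtpbp2, a GTPase gene (0.991), and Selenok, a selenoprotein gene (0.991), of 3370 genes with a mean count of 50 or more. Mean levels in WT and CSE-KO libraries were 147 and 108 CPM at Mrpl47, 106 and 79.8 at Gtpbp2, and 133 and 109 at Selenok, each with an edgeR adjusted p of 0.67 or more. In all, 47 genes had an r over 0.9. The 6 points share the libraries' depth and scaling, and r is given as a description. Since Brd2 was lower in every CSE-KO library, genes picked as most like it tend to be lower there too. Their means are therefore no separate evidence of a change.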
